A study of Homo sapiens with 12 samples.

Results

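The genes described here are 49 interferon-stimulated genes, chosen by name as genes whose transcription interferon is known to raise, out of 58051 genes counted in each library. All 49 symbols matched 1 gene each, and all 49 passed the filter on low counts in each of the 3 fits reported. They were measured by poly(A) RNA sequencing in 12 libraries from 2 human head and neck squamous cell carcinoma lines, both labelled wild type: FaDu, from a carcinoma of the hypopharynx, and Cal27, from a carcinoma of the tongue. Each line was present as parental cells, as afatinib-resistant cells (AfaR) and as erlotinib-resistant cells (ErlR), with 2 libraries labelled as biological replicates in each of the 6 groups. Erlotinib inhibits the kinase of the epidermal growth factor receptor EGFR, and afatinib blocks EGFR together with other receptors of the ERBB family. Each resistant model was a single population, raised under climbing drug doses, kept on its drug and taken off it for a day before use, so a model and its selection history cannot be told apart. The labels name no interferon treatment in any group. The comparisons ask how the level of these genes differed between each resistant model and its parental line, between the resistant models of a line, and between the lines.

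Interferons are secreted proteins that cells release on sensing viral or displaced nucleic acid. Type I and type III interferons bind their receptors on the cell surface and, through the kinases JAK1 and TYK2, lead to a complex containing STAT2 and IRF9 that binds the interferon-stimulated response element (ISRE) in promoters, while interferon gamma acts through the GAS element and the factor IRF1. The induced genes include nucleic acid sensors, enzymes and GTPases that block viral replication, the ubiquitin-like protein ISG15 with its conjugation enzymes, and the transcription factors of the pathway itself. Tumour cells can express many of them without added interferon.

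Promoter sequence was examined because it is a shared property that the choice of the genes did not use. RefSeq promoter windows (GRCh38.p14, 250 bases before to 50 bases after each annotated start) were on hand for 40 of the 49 genes, and windows for GBP2, IRF7, USP18, OAS2, IFIT2, OASL, MX2, TRIM22 and IFITM2 were not used here. The ISRE core, searched as GAAA, any 2 bases and GAAA on either strand, was found in 27 of these 40 genes, in 32 of their 54 windows, against 3.57% of all 35116 RefSeq windows of the same length. The GAS pattern TTCNNNGAA, which reads the same on both strands, was found in 13 of the 40 genes, in 15 of 54 windows, against 7.66% of all windows. Matches of both patterns can overlap, and a match is a description of the letters only. The stretches below are shown because these 6 genes carried the largest or the most divergent changes described later. Each lies upstream of the RefSeq start, outside the exons of the same gene in the annotation used for counting, reads 5′ to 3′ along the gene, and has its ISRE cores in capitals. IFI27 is at chr14:94110528-94110677 (plus strand), IFI6 at chr1:27672226-27672375 (minus strand), IFI44L at chr1:78620198-78620343 (plus strand), IFIT1 at chr10:89392396-89392545 (plus strand), HERC5 at chr4:88456955-88457104 (plus strand) and RSAD2 at chr2:6877527-6877664 (plus strand).
IFI27: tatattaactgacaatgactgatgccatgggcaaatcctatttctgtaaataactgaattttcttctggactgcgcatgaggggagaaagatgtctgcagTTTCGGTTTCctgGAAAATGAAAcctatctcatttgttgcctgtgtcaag
IFI6: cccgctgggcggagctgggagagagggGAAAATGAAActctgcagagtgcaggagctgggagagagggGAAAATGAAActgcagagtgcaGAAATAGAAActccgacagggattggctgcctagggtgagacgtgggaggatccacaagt
IFI44L: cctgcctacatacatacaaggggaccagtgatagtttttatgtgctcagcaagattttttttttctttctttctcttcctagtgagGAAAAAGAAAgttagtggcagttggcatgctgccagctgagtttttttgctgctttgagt
IFIT1: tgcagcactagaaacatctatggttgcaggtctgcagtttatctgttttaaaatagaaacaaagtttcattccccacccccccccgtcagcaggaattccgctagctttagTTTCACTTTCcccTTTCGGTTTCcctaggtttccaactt
HERC5: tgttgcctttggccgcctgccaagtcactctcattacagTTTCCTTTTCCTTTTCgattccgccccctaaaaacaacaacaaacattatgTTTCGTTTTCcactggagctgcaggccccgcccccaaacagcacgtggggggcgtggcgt
RSAD2: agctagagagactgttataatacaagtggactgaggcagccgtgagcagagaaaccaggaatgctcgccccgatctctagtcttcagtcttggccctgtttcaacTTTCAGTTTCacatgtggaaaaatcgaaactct
The stretch of IFI6 holds 3 cores and that of HERC5 holds 3, of which 2 overlap. Those of IFI27 and IFIT1 hold 2 each, and those of IFI44L and RSAD2 hold 1 each.

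Libraries held 16334937 to 23399259 counts on genes. Levels are given as CPM, counts scaled to a common library total after TMM normalization over the 12 libraries, and CPM is not corrected for gene length. The interferon-stimulated genes moved together between the 2 libraries of a group, which bears on every comparison below. In FaDu AfaR all 49 genes were higher in replicate 2 than in replicate 1, with a median log2 ratio of 0.88, and in parental FaDu 46 of 49 were. In FaDu ErlR 46 of 49 and in Cal27 AfaR 48 of 49 were higher in replicate 1, with median log2 ratios of replicate 2 over replicate 1 of -0.56 and -0.59. In parental Cal27 38 of 49 were higher in replicate 2, while Cal27 ErlR was split, 24 against 25. Over all genes at 1 CPM or more, 48.6% to 52.6% were higher in replicate 2 in every group. MX1, for example, stood at 28.7 and 129.5 CPM in the 2 FaDu AfaR libraries. The epithelial keratin gene KRT5 also differed between libraries, at 3770 and 7095 CPM in parental FaDu and at 4292 and 8613 CPM in FaDu AfaR, and its part in the shift was not tested. With 2 libraries a group, p-values measure only the spread between these samples.

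**Figure D1:**
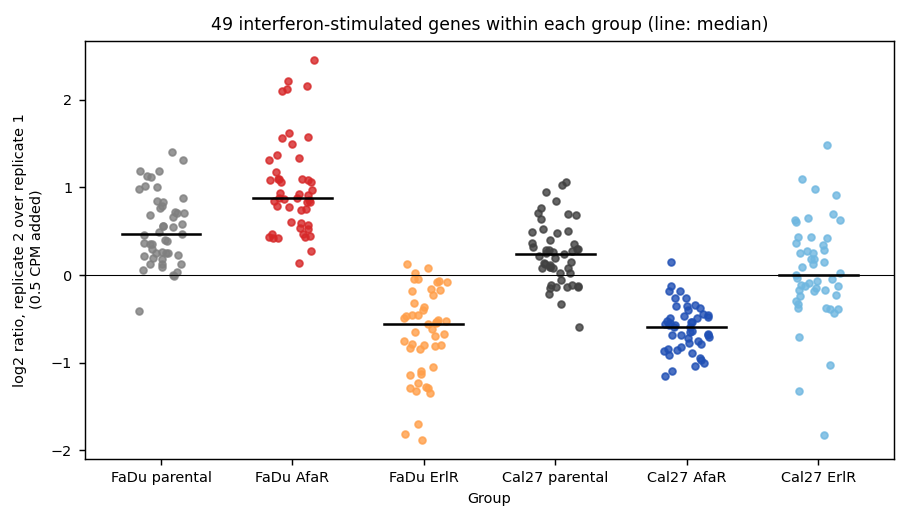
Log2 ratio of CPM in replicate 2 over replicate 1 (vertical axis, 0.5 CPM added) for each of the 49 genes (points) in each of the 6 groups (horizontal axis), with the median as a line. In FaDu AfaR all 49 points lie above 0, and in Cal27 AfaR 48 of 49 lie below 0.

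The summed level of the 49 genes was 1809 and 2475 CPM in the parental FaDu libraries, 2832 and 4845 CPM in FaDu AfaR, and 3195 and 2097 CPM in FaDu ErlR. By this sum FaDu AfaR lay above the parental range in both libraries, and FaDu ErlR overlapped it. Genes with high levels weigh most in a sum. Between AfaR replicate 1 and parental replicate 2, IFI27 stood at 200.3 against 3.79 CPM and LGALS3BP at 638 against 525 CPM. Between single AfaR and parental FaDu libraries, the median log2 ratio of the 49 genes ranged from 0.23 to 1.76. In Cal27 the sum was 2915 and 3410 CPM in parental cells, 8745 and 6038 CPM in Cal27 AfaR, and 2276 and 2141 CPM in Cal27 ErlR. Here AfaR lay above and ErlR below the parental libraries, with no overlap. In bulk RNA, fewer cells expressing a gene and less RNA per cell cannot be told apart.

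**Figure D2:**
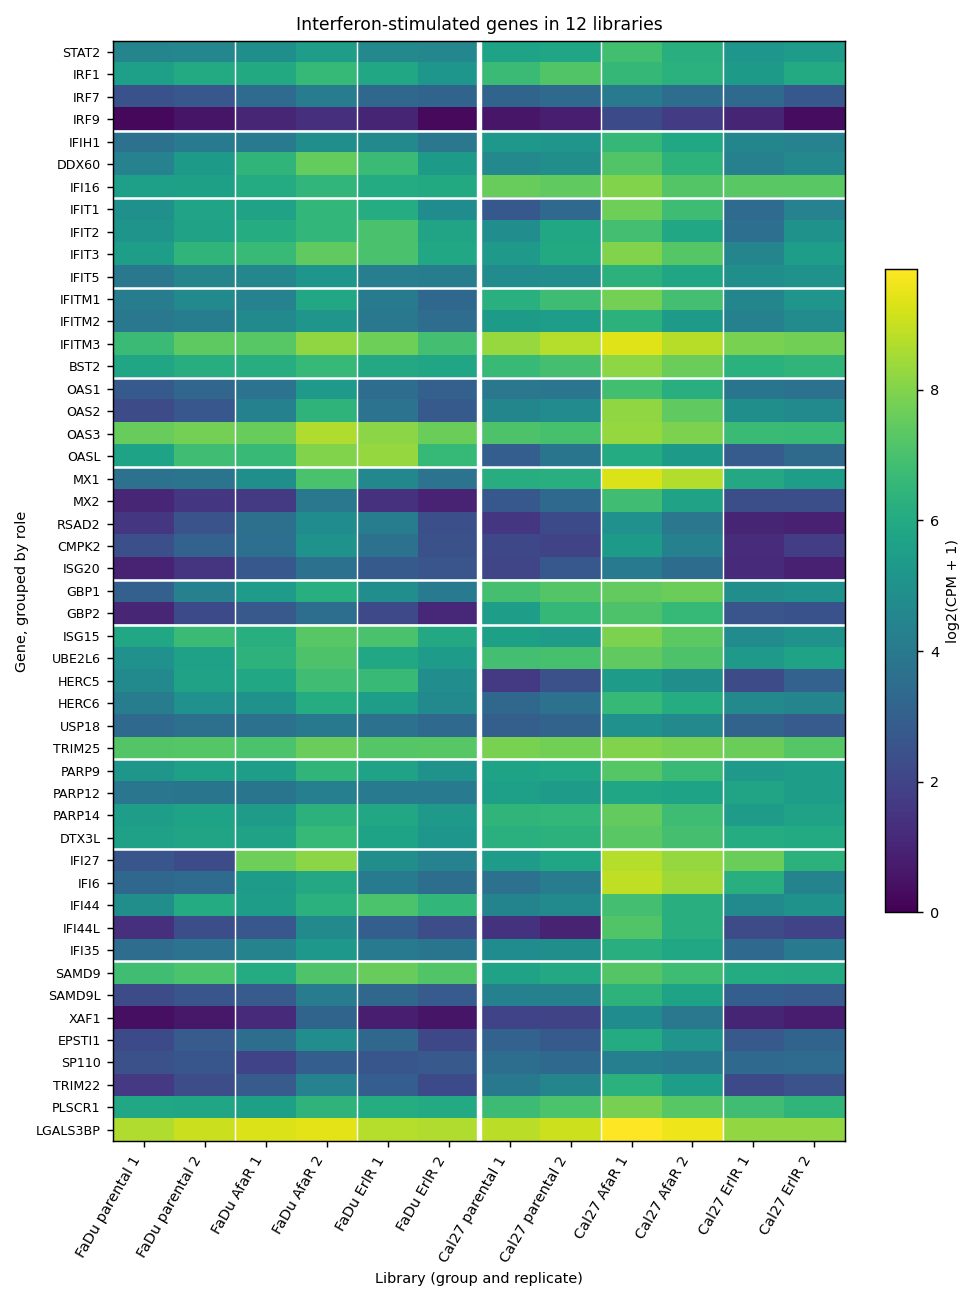
Level of the 49 interferon-stimulated genes (rows, grouped by role, white lines between groups) in the 12 libraries (columns), as log2 of CPM plus 1 (colour). The Cal27 AfaR columns are the brightest across most rows, IFI27 is dark in parental FaDu at 5.19 and 3.79 CPM, and replicate 2 of FaDu AfaR is brighter than replicate 1.

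A gene was called when edgeR's quasi-likelihood test gave a Benjamini-Hochberg adjusted p under 0.05 over all genes tested and the log2 fold change was over 1 in size. In Cal27 AfaR against parental Cal27, 31 of 49 interferon-stimulated genes were called higher and 0 lower, where 11.5% of all 15269 genes tested were called higher and 8.06% lower. Their median log2 fold change was 1.32, against 0.00 over all genes. In FaDu AfaR against parental FaDu, 17 were called higher and 0 lower, where 6.48% of 15092 genes were called higher and 0.954% lower, and the median of the 49 was 1.03. In FaDu ErlR 2 were called higher and 0 lower, with backgrounds of 1.54% and 0.504%, and the median was 0.35. Cal27 ErlR went the other way, with 11 called lower and 3 higher and a median of -0.41, where 9.92% of all genes were called lower and 3.56% higher. No gene of the 49 was called lower in either AfaR model or in FaDu ErlR. At an unadjusted p under 0.05 with the same fold limit the counts of lower calls in these 3 models were also 0, and DESeq2 gave 0 as well.

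The count in FaDu AfaR rested on the choice of libraries. It was 2 without parental replicate 1, 10 without parental replicate 2, 4 without AfaR replicate 2 and 23 without AfaR replicate 1, and only the calls of IFI27 and IFI6 held in all 4 of these fits. The median of the 49 genes there ranged from 0.45 without AfaR replicate 2 to 1.48 without AfaR replicate 1. DESeq2 called 13 genes and ended 6 of the 17 calls, those of OAS1, RSAD2, CMPK2, IFI44L, EPSTI1 and TRIM22, and the replicate block also ended that of CMPK2. In Cal27 AfaR the same fits gave 24 to 35 genes, and 24 of the 31 calls held throughout. The 7 that did not (IRF9, IFIH1, BST2, OAS3, ISG20, PARP9 and SAMD9) were each lost without AfaR replicate 1, and IRF9 also without parental replicate 1. In Cal27 ErlR 8 of the 14 calls held, all of them lower, and without ErlR replicate 1 the count of higher calls fell to 1. In FaDu ErlR the count was 1 without parental replicate 1, without parental replicate 2 or without ErlR replicate 1. The median there was 0.017 without ErlR replicate 1, 0.11 without parental replicate 1, 0.65 without parental replicate 2 and 0.68 without ErlR replicate 2. Scaling to the spike-in RNA raised the median of all genes in FaDu ErlR by 0.49 on the log2 scale and the count there to 16, with a median of 0.87 for the 49 genes.

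**Figure D3:**
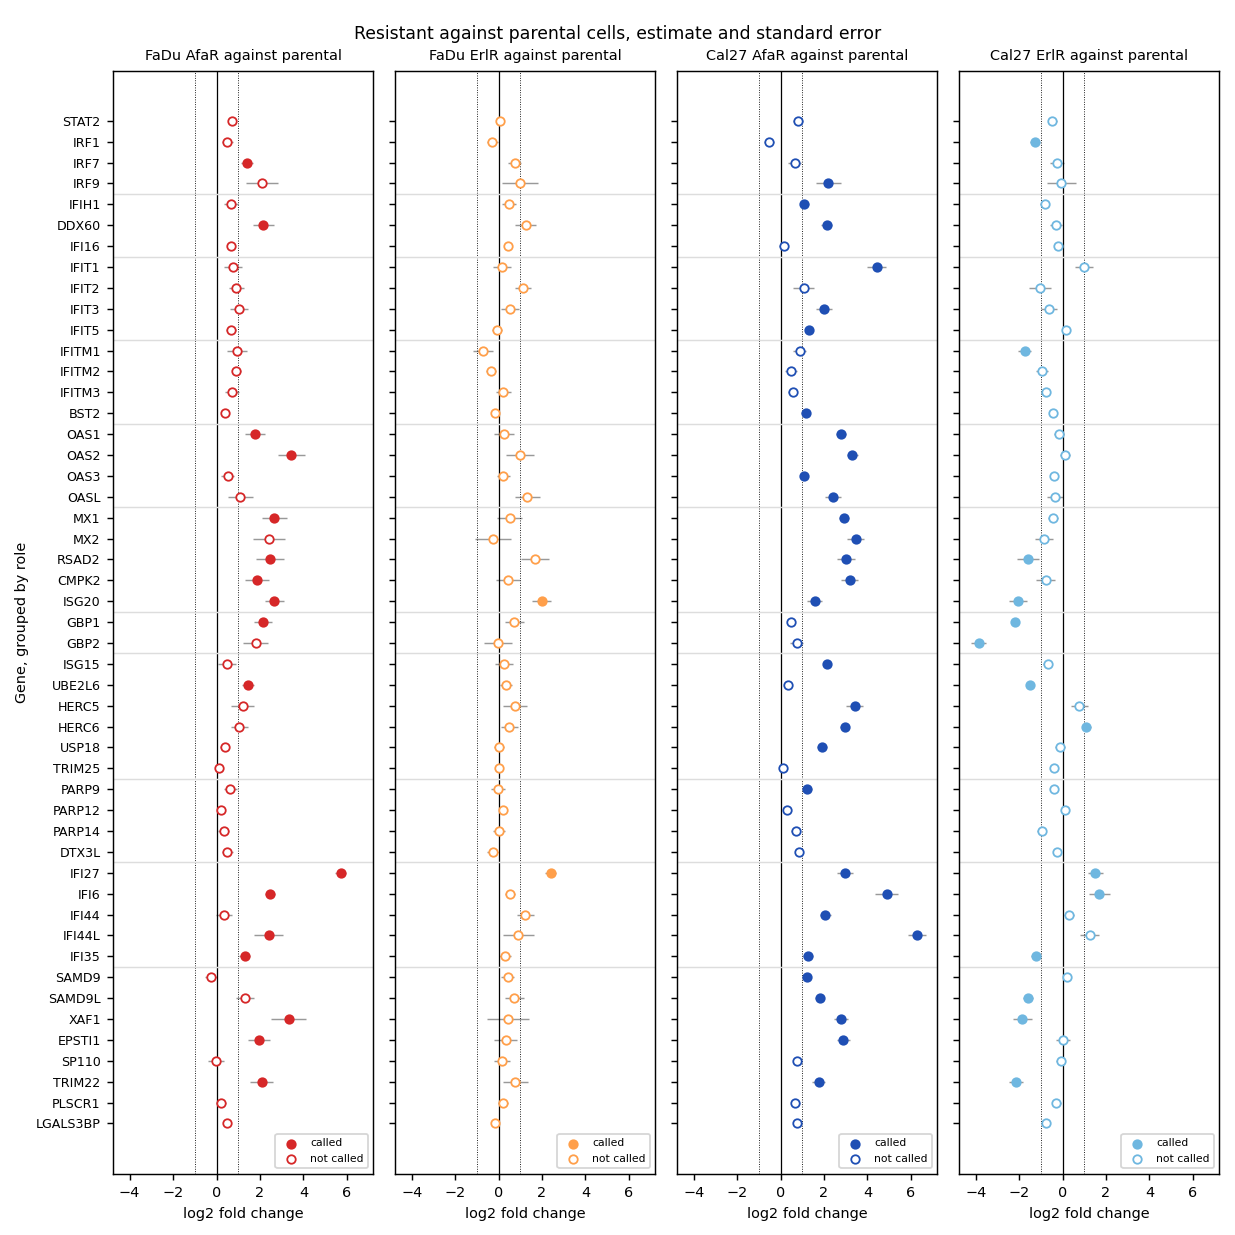
Log2 fold change of each of the 49 genes (rows, grouped by role) in 4 resistant models against the parental cells of the same line, with the standard error as a bar and dotted lines at 1 and -1. Filled points were called: 17 for AfaR and 2 for ErlR in FaDu, and 31 for AfaR and 14 for ErlR in Cal27, where GBP2 is the lowest point at -3.86.

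The interferons themselves were at the limit of detection. None of 13 interferon genes examined, of types I, II and III, passed the filter in any fit, 6 of them had 0 counts in every library, and the highest count was 7 in 1 library. A count of 0 allows up to 3 counts, which stand for 0.128 to 0.184 CPM at these depths. Of 11 genes for receptors and JAK-STAT signalling, 0 were called in FaDu AfaR or in FaDu ErlR. In Cal27 AfaR 1 was called higher and 1 lower, 9.09% each, near the 11.5% and 8.06% of all genes. In Cal27 ErlR 18.2% were called lower, against 9.92% of all genes. IFNLR1, a chain of the type III receptor, was called lower in Cal27 AfaR (log2 fold change -1.18). In Cal27 ErlR IFNLR1 (-2.05) and IFNGR1 (-1.16), a chain of the interferon gamma receptor, were both called lower.

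The 4 transcription factors among the 49 were called in at most 1 model each. IRF7, which drives further interferon transcription, stood at 4.61 and 5.46 CPM in parental FaDu and at 9.75 and 16.8 CPM in FaDu AfaR, a log2 fold change of 1.38 ± 0.28 (SE, adjusted p = 0.013) that was lost without parental replicate 1 or AfaR replicate 2. IRF9, the DNA-binding part of the STAT complex, was low throughout, at 0.524 and 0.758 CPM in parental Cal27 against 3.67 and 2.26 CPM in Cal27 AfaR (2.20 ± 0.59, adjusted p = 0.016), and 48.4% of its exon bases lie in exons of another gene, so its counts are uncertain. IRF1, the factor tied most closely to interferon gamma, was at 102 and 143 CPM in parental Cal27 and at 40.4 and 63.6 CPM in Cal27 ErlR, lower without overlap (-1.26 ± 0.23, adjusted p = 0.0044). In Cal27 AfaR, where most of the other genes rose, IRF1 had an estimate of -0.54 (adjusted p = 0.090). STAT2 was called in no model, with estimates from -0.48 to 0.80. In both AfaR models its change passed the test but not the fold limit. The IRF1 call in Cal27 ErlR was lost without parental replicate 2 or ErlR replicate 1.

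Among the 3 nucleic acid sensors, DDX60, a helicase that assists RNA sensing, was called in both AfaR models. It was at 19.8 and 40.2 CPM in parental FaDu and 86.2 and 184 CPM in FaDu AfaR (2.15 ± 0.49), and at 23.5 and 28.2 CPM in parental Cal27 and 143 and 80.8 CPM in Cal27 AfaR (2.12 ± 0.26). The groups did not overlap in either line, but the FaDu call was lost without parental replicate 1 or AfaR replicate 2. IFIH1, the RNA sensor MDA5, was called in Cal27 AfaR alone (1.09 ± 0.20), a call lost without AfaR replicate 1. The difference between the lines in its AfaR effect was not called (-0.41, adjusted p = 0.56). In Cal27 ErlR IFIH1 was at 21.9 and 19.4 CPM, against 37.3 and 34.5 CPM in parental cells. That decrease passed the test but not the fold limit. IFI16, a DNA sensor, was called in no model, though its change in FaDu AfaR passed the test but not the fold limit.

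The IFI proteins held the largest changes. IFI27, a mitochondrial protein and a common marker of interferon response, was called higher in all 4 models, the only gene of the 49 to be so. Its level was 5.19 and 3.79 CPM in parental FaDu, 200.3 and 277.8 CPM in FaDu AfaR, and 28.4 and 19.7 CPM in FaDu ErlR. In Cal27 it was 42.1 and 54.1 CPM in parental cells, 435 and 315 CPM in AfaR, and 199.8 and 79.6 CPM in ErlR. Every resistant library exceeded both parental libraries of its line. The log2 fold changes were 5.71 ± 0.26 (adjusted p = 3.6e-05) for AfaR and 2.40 ± 0.25 (adjusted p = 0.0040) for ErlR in FaDu, and 2.97 ± 0.38 (adjusted p = 0.00037) for AfaR and 1.51 ± 0.36 (adjusted p = 0.014) for ErlR in Cal27. The Cal27 ErlR call was lost without ErlR replicate 1. IFI6, which restrains mitochondrial cell death, was at 8.88 and 9.72 CPM in parental FaDu, 42.1 and 60.7 CPM in FaDu AfaR and 16.0 and 10.9 CPM in FaDu ErlR. It was at 11.6 and 16.5 CPM in parental Cal27, 479 and 349 CPM in Cal27 AfaR and 72.4 and 20.1 CPM in Cal27 ErlR. It was called higher in both AfaR models (2.45 ± 0.23 in FaDu and 4.89 ± 0.53 in Cal27) and in the ErlR model of Cal27 (1.69 ± 0.48), the last lost without parental replicate 1, without ErlR replicate 1, by DESeq2 and with only the 4 libraries compared. Per kilobase of exon, IFI6 had the highest mean level of the 49 genes in Cal27 AfaR, at 479 CPM per kilobase, ahead of IFITM3 at 408.

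IFI44L, a member of the IFI44 family whose promoter stretch is shown above, had the largest log2 fold change of the 49 genes in Cal27 AfaR. It was at 1.75 and 0.992 CPM in parental Cal27, 141 and 71.7 CPM in Cal27 AfaR, and 3.71 and 2.93 CPM in Cal27 ErlR. The AfaR libraries stood far above the rest (6.28 ± 0.40, adjusted p = 7.9e-06), and the ErlR estimate of 1.25 missed the threshold (adjusted p = 0.069). In FaDu it was at 1.55 and 4.16 CPM in parental cells and 5.34 and 24.9 CPM in AfaR, a call (2.39 ± 0.67, adjusted p = 0.039) that was lost by DESeq2, without either parental replicate and without AfaR replicate 2. IFI44, its neighbour on chromosome 1, was called in Cal27 AfaR alone (2.07 ± 0.23), at 118 and 73.3 CPM against 20.6 and 25.1 CPM in parental cells. In FaDu the highest IFI44 levels were in ErlR, at 133 and 89.6 CPM, against 28.4 and 65.2 CPM in parental cells and 44.0 and 76.3 CPM in AfaR, and neither difference from parental cells passed (adjusted p = 0.096 and 0.54). IFI35, a small protein released in inflammation, was higher in both AfaR models (1.29 in FaDu and 1.25 in Cal27) and lower in Cal27 ErlR (-1.21), at 9.26 and 15.3 CPM against 26.6 and 29.2 CPM in parental Cal27. Its FaDu AfaR call was lost without parental replicate 1 or AfaR replicate 2, and its ErlR call without ErlR replicate 1.

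**Figure D4:**
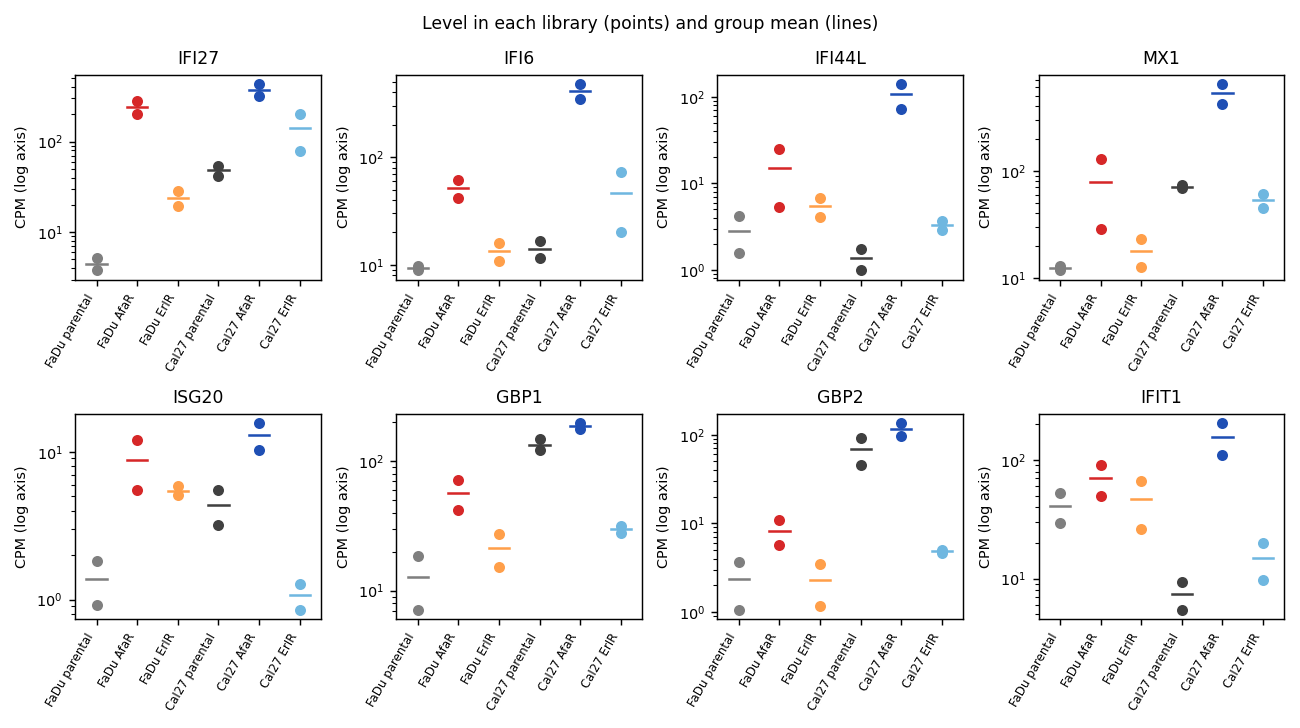
CPM of 8 interferon-stimulated genes (log axis, scale differs between panels) in each library (points) of the 6 groups, with the group mean as a line. IFI27, IFI6, IFI44L and MX1 are highest in Cal27 AfaR, while GBP1, GBP2 and ISG20 are lower in Cal27 ErlR than in parental Cal27, with GBP2 at 5.05 and 4.64 CPM against 45.2 and 93.0 CPM.

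The MX GTPases, viperin and the nucleases were called in Cal27 AfaR in all 5 cases and in FaDu AfaR in 4 of 5. MX1, a GTPase that traps viral nucleocapsids, was at 11.8 and 12.9 CPM in parental FaDu and 28.7 and 129.5 CPM in FaDu AfaR (2.66 ± 0.58, adjusted p = 0.017). In Cal27 it was at 68.5 and 73.9 CPM in parental cells, 648 and 417 CPM in AfaR (2.91 ± 0.23, adjusted p = 2.5e-05) and 61.1 and 45.0 CPM in ErlR. Its related GTPase MX2 was at 5.53 and 9.22 CPM in parental Cal27 and 111 and 49.9 CPM in Cal27 AfaR (3.45 ± 0.38). The FaDu AfaR libraries of MX2, at 2.18 and 14.2 CPM, lay above parental levels of 1.07 and 1.98 CPM, but the adjusted p was 0.052. RSAD2 encodes viperin, which makes a chain-terminating nucleotide. It was at 1.94 and 4.78 CPM in parental FaDu and 11.4 and 26.4 CPM in FaDu AfaR (2.48 ± 0.65), at 1.92 and 3.62 CPM in parental Cal27 and 30.7 and 14.1 CPM in Cal27 AfaR (3.02 ± 0.42), and at 1.02 and 0.855 CPM in Cal27 ErlR (-1.58 ± 0.52, adjusted p = 0.048). CMPK2, the nucleotide kinase gene beside RSAD2, was at 4.27 and 7.59 CPM in parental FaDu and 11.1 and 32.2 CPM in FaDu AfaR (1.85), and at 3.44 and 3.09 CPM in parental Cal27 and 39.9 and 19.2 CPM in Cal27 AfaR (3.18). The FaDu AfaR calls of MX1, RSAD2 and CMPK2 were each lost without either parental replicate or without AfaR replicate 2, and those of RSAD2 and CMPK2 also by DESeq2. The Cal27 ErlR call of RSAD2 was lost without parental replicate 2, without either ErlR replicate and with upper-quartile scaling.

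ISG20, an RNA exonuclease, differed in direction between the ErlR models. It was at 0.922 and 1.82 CPM in parental FaDu, 5.48 and 12.0 CPM in FaDu AfaR and 5.82 and 5.10 CPM in FaDu ErlR, so both resistant models lay above parental cells (2.66 ± 0.44 and 1.98 ± 0.45). In Cal27 it was at 3.20 and 5.48 CPM in parental cells, 15.6 and 10.2 CPM in AfaR (1.57 ± 0.34) and 1.28 and 0.855 CPM in ErlR (-2.05 ± 0.41, adjusted p = 0.0062). The ErlR effect was larger in FaDu than in Cal27 by 4.02 on the log2 scale (adjusted p = 0.0022). The FaDu AfaR call was lost without parental replicate 1, the FaDu ErlR call without any 1 of the 4 libraries, and the Cal27 AfaR call without AfaR replicate 1.

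The OAS family makes oligoadenylates that activate RNA degradation by RNase L. All 4 of its genes were called higher in Cal27 AfaR and 2 in FaDu AfaR, and 0 were called in the ErlR models. OAS2 was at 3.79 and 5.41 CPM in parental FaDu and 18.9 and 82.6 CPM in FaDu AfaR (3.45 ± 0.63, adjusted p = 0.010), and at 21.96 and 26.02 CPM in parental Cal27 and 299 and 174 CPM in Cal27 AfaR (3.30 ± 0.25, adjusted p = 1.9e-05). The estimates in both lines lay within 1 standard error of each other. OAS1 rose by 1.78 in FaDu AfaR and 2.77 in Cal27 AfaR on the log2 scale, and OAS3 by 1.07 in Cal27 AfaR. OASL, which binds the sensor RIG-I and lacks the synthetase activity, had its highest levels in FaDu, at 50.8 and 112 CPM in parental cells, 100.2 and 253 CPM in AfaR and 312 and 96.1 CPM in ErlR. These 3 FaDu groups overlapped and neither difference was called. In Cal27 OASL was at 6.64 and 13.3 CPM in parental cells and 65.9 and 39.8 CPM in AfaR (2.41 ± 0.36). The FaDu AfaR call of OAS2 was lost without parental replicate 1, that of OAS1 by DESeq2, without either parental replicate or without AfaR replicate 2, and the Cal27 call of OAS3 without AfaR replicate 1.

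The IFIT proteins bind foreign RNA and block its translation. In Cal27 AfaR 3 of the 4 were called higher, and in the other 3 models 0 were. IFIT1 was at 5.48 and 9.28 CPM in parental Cal27, 205 and 111 CPM in Cal27 AfaR (4.42 ± 0.42, adjusted p = 6.4e-05) and 9.77 and 19.8 CPM in Cal27 ErlR. In FaDu it was at 29.3 and 53.1 CPM in parental cells, 50.02 and 90.6 CPM in AfaR and 66.7 and 26.3 CPM in ErlR, and these groups overlapped. IFIT3 (2.00) and IFIT5 (1.32) were the other calls in Cal27 AfaR. IFIT2 was called in no model, with an estimate of 1.06 in Cal27 AfaR (adjusted p = 0.12). All 3 calls held with any 1 of the 4 libraries left out.

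ISG15 is attached to proteins by a cascade that includes the E2 enzyme UBE2L6 and the ligase HERC5, and is removed by USP18. HERC6 and TRIM25 were grouped with these genes. In Cal27 AfaR 4 of these 6 genes were called higher, and UBE2L6 and TRIM25 were not. ISG15 was at 47.6 and 42.9 CPM in parental Cal27 and 237 and 163 CPM in Cal27 AfaR (2.15 ± 0.19), and at 57.3 and 103 CPM in parental FaDu and 73.0 and 156 CPM in FaDu AfaR, which overlapped (0.50, adjusted p = 0.42). In Cal27 ErlR ISG15 was at 26.1 and 31.1 CPM, a decrease that passed the test but not the fold limit. HERC5 was at 2.21 and 4.38 CPM in parental Cal27 and 40.9 and 29.1 CPM in Cal27 AfaR (3.41 ± 0.38). HERC6 was at 9.09 and 11.8 CPM in parental Cal27, 94.9 and 67.3 CPM in Cal27 AfaR (2.96 ± 0.22) and 24.1 and 21.2 CPM in Cal27 ErlR (1.09 ± 0.21, adjusted p = 0.0056), 1 of the 3 higher calls in that model. USP18 rose by 1.90 in Cal27 AfaR on the log2 scale. UBE2L6 had another pattern: it was at 30.3 and 48.97 CPM in parental FaDu and 81.2 and 137 CPM in FaDu AfaR (1.44 ± 0.28), and at 118 and 126 CPM in parental Cal27, 174 and 137 CPM in Cal27 AfaR (0.35, adjusted p = 0.14) and 37.6 and 50.9 CPM in Cal27 ErlR (-1.49 ± 0.18, adjusted p = 0.00065). The FaDu AfaR call of UBE2L6 was lost without parental replicate 1 or AfaR replicate 2, and the ErlR call of HERC6 without parental replicate 1 or ErlR replicate 1.

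The guanylate-binding proteins, GTPases that respond most strongly to interferon gamma, held the largest decreases. GBP1 was at 122 and 148 CPM in parental Cal27, 178 and 198 CPM in Cal27 AfaR and 28.05 and 31.8 CPM in Cal27 ErlR, where it was lower by -2.20 ± 0.15 on the log2 scale (adjusted p = 5.6e-05). In Cal27 AfaR its change of 0.48 passed the test (adjusted p = 0.027) but not the fold limit. In FaDu it was at 7.14 and 18.5 CPM in parental cells, 41.9 and 72.2 CPM in AfaR (2.14 ± 0.43) and 27.3 and 15.3 CPM in ErlR, which overlapped parental cells. GBP2 was at 45.2 and 93.0 CPM in parental Cal27, 135 and 96.9 CPM in Cal27 AfaR and 5.05 and 4.64 CPM in Cal27 ErlR (-3.86 ± 0.35, adjusted p = 0.00015). Its FaDu levels were 1.07 and 3.64 CPM in parental cells and 5.68 and 10.8 CPM in AfaR (1.80, adjusted p = 0.064). Both decreases in Cal27 ErlR held under every alternative tried, while the FaDu AfaR call of GBP1 was lost without parental replicate 1 or AfaR replicate 2. Of the exon bases of GBP2, 9.9% are shared with GBP7.

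The IFITM proteins and tetherin (BST2) act at membranes, against virus entry and release. IFITM1 was at 75.3 and 109 CPM in parental Cal27, 218 and 119.9 CPM in Cal27 AfaR and 21.7 and 33.9 CPM in Cal27 ErlR (-1.75 ± 0.31, adjusted p = 0.0037). BST2 was the single call in Cal27 AfaR (1.15 ± 0.19), lost without AfaR replicate 1. IFITM2 and IFITM3 were called in no model against parental cells. The IFITM genes are related in sequence. Apart from that, 32.5% of the exon bases of IFITM1 lie, by position, in exons annotated for IFITM2. Reads may therefore have been split or left out between them.

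Among the remaining genes, XAF1, which promotes cell death, was at 0.340 and 0.572 CPM in parental FaDu and 1.31 and 7.90 CPM in FaDu AfaR (3.31 ± 0.80, adjusted p = 0.024). In Cal27 it was at 2.97 and 3.03 CPM in parental cells, 26.6 and 14.4 CPM in AfaR (2.77 ± 0.33) and 1.02 and 0.672 CPM in ErlR (-1.85 ± 0.42). TRIM22, an antiviral ubiquitin ligase, followed the same order in Cal27, at 14.9 and 21.3 CPM in parental cells, 78.0 and 43.4 CPM in AfaR (1.75 ± 0.29) and 3.58 and 4.77 CPM in ErlR (-2.14 ± 0.32), and was at 2.09 and 3.95 CPM in parental FaDu against 6.06 and 19.7 CPM in FaDu AfaR (2.08 ± 0.54). SAMD9L, a restriction factor, was higher in Cal27 AfaR by 1.80 and lower in Cal27 ErlR by -1.60 on the log2 scale. SAMD9, its neighbour on chromosome 7, was higher in Cal27 AfaR alone (1.23), and EPSTI1 in both AfaR models (1.95 in FaDu and 2.90 in Cal27). Of the PARP family, whose enzymes add ADP-ribose to proteins, and the ligase DTX3L, only PARP9 was called, in Cal27 AfaR (1.24). SP110, PLSCR1 and LGALS3BP were called in no model, LGALS3BP being the gene with the highest mean level per kilobase of exon in parental FaDu (130 CPM per kilobase). The FaDu AfaR calls of XAF1, TRIM22 and EPSTI1 were lost without either parental replicate or without AfaR replicate 2, and those of TRIM22 and EPSTI1 also by DESeq2. Of exon bases, 38.3% in XAF1 and 45.2% in SP110 are shared with other genes.

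Across the 4 models, 14 genes were called higher in both AfaR models, 82.4% of the 17 in FaDu and 45.2% of the 31 in Cal27. Beside these shares, 63.3% of all 49 genes were called higher in Cal27 AfaR and 34.7% in FaDu AfaR. The same overlap over all genes was not counted. As given above, the count in FaDu AfaR rested on the choice of libraries, and so do overlaps with it. These 14 were CMPK2, DDX60, EPSTI1, IFI27, IFI35, IFI44L, IFI6, ISG20, MX1, OAS1, OAS2, RSAD2, TRIM22 and XAF1. GBP1, IRF7 and UBE2L6 were called in FaDu AfaR and not in Cal27 AfaR. Of the 11 genes lower in Cal27 ErlR, 7 were called higher in FaDu AfaR (GBP1, IFI35, ISG20, RSAD2, TRIM22, UBE2L6 and XAF1), 63.6% of the former and 41.2% of the latter. Of all 49 genes, 34.7% were called higher in FaDu AfaR and 22.4% lower in Cal27 ErlR. In 12 of the 49 genes no model gave a call (DTX3L, IFI16, IFIT2, IFITM2, IFITM3, LGALS3BP, PARP12, PARP14, PLSCR1, SP110, STAT2 and TRIM25). Only IFIT2, PARP12 and TRIM25 among them passed the test in no model. Each of the others passed it in some model but not the fold limit, LGALS3BP in both AfaR models and in Cal27 ErlR.

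The AfaR effects of the lines were compared as 1 contrast over all 12 libraries. The effect was called smaller in FaDu for 7 genes and larger in FaDu for 2, where 4.76% of 16240 genes were called smaller and 7.57% larger. IFI44L (-3.85, adjusted p = 0.015), IFIT1 (-3.64, adjusted p = 0.0036), IFI6, HERC6, IFI44, USP18 and SAMD9 had the larger effect in Cal27. IFI27 (2.76, adjusted p = 0.0032) and GBP1 (1.68, adjusted p = 0.036) had the larger effect in FaDu. DESeq2 ended the calls of IFI44 and GBP1. Only the calls of IFIT1, USP18 and IFI27 held with any 1 library left out. Leaving out 1 library gave 2 to 14 genes with a smaller effect in FaDu: the count was 2 without parental FaDu replicate 2, 4 without FaDu AfaR replicate 1, 14 without FaDu AfaR replicate 2, and 3 without parental Cal27 replicate 1 or Cal27 AfaR replicate 1. The count of larger effects ranged from 1 to 4, at 4 without FaDu AfaR replicate 1 and at 1 without parental FaDu replicate 1, FaDu AfaR replicate 2, parental Cal27 replicate 2 or either Cal27 AfaR replicate. With spike-in scaling the split was 3 larger and 6 smaller.

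**Figure D5:**
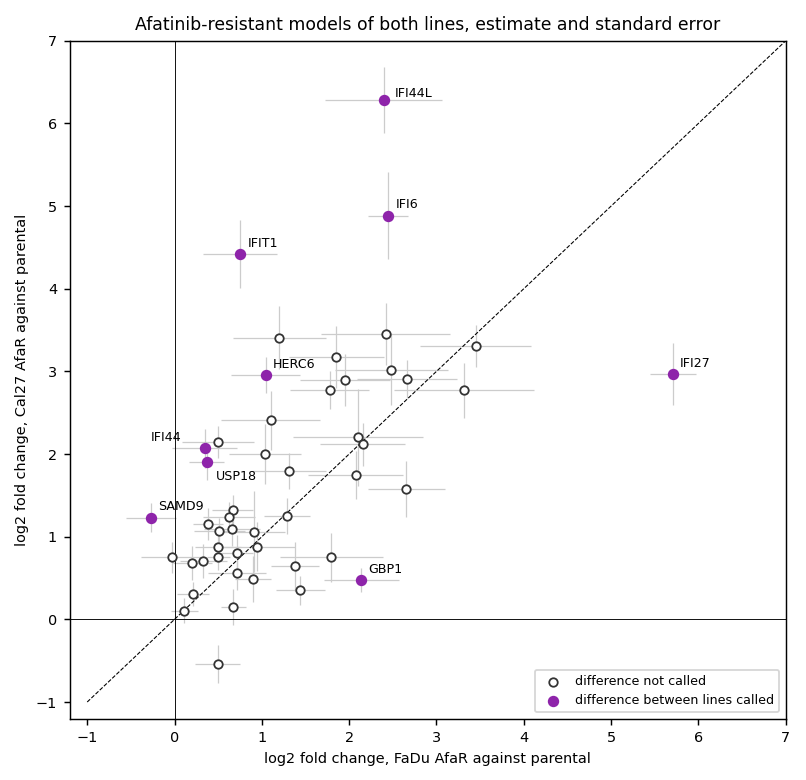
Log2 fold change of the 49 genes in FaDu AfaR (horizontal axis) and Cal27 AfaR (vertical axis), each against its own parental cells, with standard errors as bars and a dashed line of equal change. Filled points were called for a difference between the lines; IFI44L at 2.39 and 6.28 lies above the line and IFI27 at 5.71 and 2.97 below it.

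The ErlR effect was called larger in FaDu than in Cal27 for 8 genes and smaller for 0, where 7.51% of all genes were called larger and 3.36% smaller. These were ISG20 (4.02), GBP2 (3.83), RSAD2 (3.24), GBP1 (2.91), TRIM22 (2.90), SAMD9L (2.31), UBE2L6 (1.83) and IFI35 (1.49). All 8 were called lower in Cal27 ErlR, and ISG20 alone was also called higher in FaDu ErlR. The calls of ISG20, GBP1 and UBE2L6 held with any 1 library left out. The count was 4 without parental FaDu replicate 1, 3 without FaDu ErlR replicate 1 and 5 without parental Cal27 replicate 2, and it was 18 with spike-in scaling, which moved the median of all genes by 0.47 on the log2 scale.

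Compared with each other, the resistant models of Cal27 differed most. In Cal27 AfaR 42 of 49 genes were called higher than in Cal27 ErlR and 0 lower, with a median log2 difference of 2.08, where 18.2% of all genes were called higher and 8.86% lower. The largest differences were those of IFI44L (5.03 ± 0.36), XAF1 (4.62 ± 0.39), GBP2 (4.61 ± 0.36), RSAD2 (4.60 ± 0.48), MX2 (4.31 ± 0.40) and CMPK2 (3.96 ± 0.40). The 7 genes without a call were IRF1, IRF7, IFI16, TRIM25, PARP12, SP110 and PLSCR1, and 34 of the 42 calls held under every alternative tried. In FaDu AfaR 10 genes were called higher than in FaDu ErlR and 0 lower, where 4.45% of all genes were called higher and 1.50% lower. IFI27 (3.31 ± 0.22, adjusted p = 0.00027) and IFI6 (1.93 ± 0.23, adjusted p = 0.0024) were the calls that held under every alternative. XAF1 (2.90), MX2 (2.66), OAS2 (2.45), MX1 (2.14), IFITM1 (1.66), GBP1 (1.41), IFITM2 (1.25) and UBE2L6 (1.09) were the others. The FaDu count was 21 without AfaR replicate 1, 3 without AfaR replicate 2, 7 without ErlR replicate 1, 3 without ErlR replicate 2, 6 by DESeq2 and 4 with the replicate number as a block, and spike-in scaling gave 9 higher and 2 lower, with the median of all genes shifted by -0.31.

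The parental lines differed before any selection by drug. In parental Cal27 22 genes were called higher than in parental FaDu and 6 lower, with a median log2 difference of 0.87, where 19.1% of 16240 genes were called higher and 12.5% lower. The guanylate-binding proteins led, with GBP2 at 4.89 ± 0.54 and GBP1 at 3.40 ± 0.39, followed by IFI27 at 3.41 ± 0.41, XAF1 at 2.71 ± 0.76, TRIM22 at 2.59 ± 0.52 and MX1 at 2.53 ± 0.53. The 6 genes lower in Cal27 were HERC5 (-3.48 ± 0.63), OASL (-3.03 ± 0.62), IFIT1 (-2.48 ± 0.52), HERC6 (-1.18 ± 0.39), SAMD9 (-1.15 ± 0.28) and IFI44 (-1.03 ± 0.37). The highest mean level per kilobase of exon was that of LGALS3BP in FaDu (130 CPM per kilobase, IFITM3 at 101) and that of IFITM3 in Cal27 (278 CPM per kilobase, LGALS3BP at 140). Spike-in scaling moved the median of all genes by 0.58 and the split to 30 higher and 3 lower, ending the calls of HERC6, IFI44 and SAMD9. Under all alternatives 19 of the 28 calls held, and that of XAF1 was lost without FaDu replicate 1.

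Genes with and without an ISRE core in the promoter window were counted side by side. In FaDu AfaR 9 of 27 genes with a core and 5 of 13 without one were called higher, against 6.48% of all genes. Their medians were 0.71 and 1.29. In Cal27 AfaR these counts were 19 of 27 and 7 of 13, against 11.5% of all genes, with medians of 1.32 and 1.25. In Cal27 ErlR 4 of 27 with a core and 5 of 13 without one were called lower, with medians of -0.40 and -0.48. In the same model 2 with a core and 1 without one were called higher. Over all genes 9.92% were called lower there and 3.56% higher. GBP1, RSAD2, ISG20 and IFITM1 were the genes with a core among those lower in Cal27 ErlR.

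Genes outside the 49 were counted in lists of pathway genes. Over all genes tested, 6.48% were called higher and 0.954% lower in FaDu AfaR, and 1.54% and 0.504% in FaDu ErlR. In Cal27 AfaR these shares were 11.5% and 8.06%, and in Cal27 ErlR 3.56% and 9.92%. Of 41 other interferon-induced genes, 40 were tested in FaDu and 41 in Cal27. In FaDu AfaR 9 were called higher and 0 lower, with RTP4 (3.54), GBP4 (2.67), IFI27L2 (2.12) and TNFSF10 (2.05) leading, and 0 were called in FaDu ErlR. In Cal27 AfaR 11 were called higher and 0 lower, among them BATF2 (2.07), HELZ2 (1.89) and RTP4 (1.75). In Cal27 ErlR 13 were called lower and 0 higher, with GBP4 (-4.13), LAMP3 (-3.63) and TNFSF10 (-3.35), which encodes the death ligand TRAIL. Of 15 antigen presentation genes, which interferon gamma also induces, 4 were higher in FaDu AfaR, 5 in Cal27 AfaR and 0 in FaDu ErlR, while 8 were lower in Cal27 ErlR with a list median of -1.12. Of 15 sensors, adaptors and upstream factors, 13 were tested in FaDu and 14 in Cal27, and 1 was higher in FaDu AfaR, 5 were higher and 1 lower in Cal27 AfaR, and 3 were lower in Cal27 ErlR. Of 10 negative regulators, 9 were tested, of which 0 were called in FaDu, 1 was higher and 1 lower in Cal27 AfaR, and 1 was lower in Cal27 ErlR. These calls of negative regulators, 11.1% in each case, were near the shares over all genes. So were the sensors and adaptors higher in FaDu AfaR (7.69%) and lower in Cal27 AfaR (7.14%).

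Markers of cell identity were examined beside these counts. The summed level of 6 squamous epithelial markers was 3013 to 9567 CPM in every group except Cal27 AfaR, where it was 425 to 558 CPM and all 6 markers were lower than in parental Cal27. The 6 fibroblast markers summed to 313 to 326 CPM in Cal27 AfaR, mostly COL1A1 at 266 and 273 CPM, against 29.1 to 40.0 CPM in parental Cal27, and DCN was at 0 in 1 of the AfaR libraries. In Cal27 ErlR the fibroblast markers summed to 4.34 to 9.90 CPM, and 3 of the 4 tested were called lower than in parental Cal27. Over all genes tested 9.92% were called lower in that model. The 4 endothelial markers summed to 2.56 to 6.17 CPM there, against 31.7 to 32.7 CPM in parental Cal27 and 30.1 to 37.4 CPM in Cal27 AfaR, with 1 of the 2 tested called lower. In FaDu they summed to 6.60 to 20.6 CPM in AfaR against 3.40 to 5.98 CPM in parental cells, and 0 of the 3 tested were called. The part of these shifts in the results of the AfaR models and of Cal27 ErlR was not tested. The 6 leukocyte markers summed to 5.02 to 7.64 CPM in all groups, with CD3E at 0 in both AfaR models. The 3 plasmacytoid dendritic cell markers summed to 7.89 to 8.37 CPM in Cal27 AfaR against 1.34 to 2.45 CPM in parental Cal27. CLEC4C was at 0 in every group and LILRA4 at 0 in both of these Cal27 groups, so TCF4 alone made up these sums.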

How the data were processed

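Poly(A) RNA from 12 libraries was sequenced as paired reads. Per the labels and the study's methods, the authors trimmed reads with Trimmomatic 0.36, aligned them to GRCh38 with STAR 2.5.2b and counted them with featureCounts (Subread 1.5.2), and deposited raw counts per gene. The strand setting is not given in the sources used here. The authors also deposited normalized counts (signal, each the raw count divided by 1 factor per library, set separately for each comparison), which served as an untested alternative. Groups came from the sample labels. Spike-ins (92 sequences, 3.86% to 5.82% of counts) were left out of library sizes. Raw counts were fitted with edgeR 4.0.16 in R 4.3.3 (TMM, filterByExpr, glmQLFit and glmQLFTest), with 6 libraries per line fit (3 residual degrees of freedom) or all 12 (6), and Benjamini-Hochberg adjustment over all genes tested. The method was tested on simulated counts. Alternatives were DESeq2 1.42.0, no filter, upper-quartile and spike-in scaling, a replicate block, only the 4 libraries compared, unadjusted p and each library left out. By the naming rule, any of the 49 genes could be named, the 6 largest calls per direction with library values, and at most 4 other genes of the pathway lists per comparison. Members and lists were chosen with earlier results of these data known. Intervals and limits from counts cover counting error only. Results for some genes of the pathway and marker lists are not reported here.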

Additional observations from a re-analysis of the deposited data

Results flagged for a closer look

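For 17 results the effect of resistance differed between the lines, by a test of the difference itself (FaDu effect minus Cal27 effect, all 12 libraries, edgeR's quasi-likelihood test with Benjamini-Hochberg adjustment). For AfaR the differences in log2 fold change were -3.85 for IFI44L, -3.64 for IFIT1, -2.42 for IFI6, -1.89 for HERC6, -1.70 for IFI44, -1.52 for USP18 and -1.48 for SAMD9, each a higher AfaR effect in Cal27, and 1.68 for GBP1 and 2.76 for IFI27, each a higher AfaR effect in FaDu. For ErlR they were 1.49 for IFI35, 1.83 for UBE2L6, 2.31 for SAMD9L, 2.90 for TRIM22, 2.91 for GBP1, 3.24 for RSAD2, 3.83 for GBP2 and 4.02 for ISG20. With any 1 library left out, 6 of these 17 held: IFIT1, USP18 and IFI27 for AfaR, and ISG20, GBP1 and UBE2L6 for ErlR. With 2 libraries a group, no sample could be examined for standing apart from its own group.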

How the results depend on the processing

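Where 1 library was left out, the lone library of its group is assumed to vary like the other groups. Leaving out 1 library gave 2 to 23 genes higher in FaDu AfaR, 1 to 2 in FaDu ErlR, 1 to 3 in Cal27 ErlR, and, for FaDu AfaR against FaDu ErlR, 3 to 21 higher and 0 to 1 lower. For the difference between lines it gave 1 to 4 larger and 2 to 14 smaller AfaR effects in FaDu, and 3 to 11 larger and 0 to 1 smaller ErlR effects. The count higher in FaDu ErlR was 7 at an unadjusted p, 7 with no filter on low counts, 16 with spike-in scaling and 7 past the fold limit in the authors' normalized counts. For FaDu AfaR against FaDu ErlR the count higher was 16 at an unadjusted p, 6 by DESeq2, 17 with no filter and 6 with only the 4 libraries compared, and spike-in scaling gave 2 lower. Spike-in scaling left 3 genes lower in parental Cal27 than in parental FaDu. The AfaR difference between lines had 4 larger effects in FaDu at an unadjusted p and 5 larger and 11 smaller with no filter. The ErlR difference had 15 larger and 1 smaller with no filter and 18 larger with spike-in scaling. The median AfaR difference of the 49 genes, -0.35, changed sign without FaDu AfaR replicate 1 and ranged from -0.96 to 0.028 with 1 library left out, and the cause was not tested. No call of a single gene reversed. Of the recomputed counts of calls, 173 stayed within 1.5 times their main value and 43 did not. The 173 include counts of lower calls that were 0 in the main fit and stayed at 0.

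Over all genes tested in a line, samples with the same replicate number did not deviate together. The correlations of their deviations from the group means were 0.105, -0.102 and -0.086 in FaDu and -0.201, 0.104 and -0.055 in Cal27. The number was therefore not taken to pair them. Among the 49 genes, replicate 2 was higher for 46 in parental FaDu and 49 in FaDu AfaR, but replicate 1 was for 46 in FaDu ErlR. With the replicate block the counts higher were 16 for AfaR and 2 for ErlR in FaDu, 31 for AfaR and 4 for ErlR in Cal27, with 11 lower in the last. For FaDu AfaR against FaDu ErlR the block gave 4 higher.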

Other observations

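Outside the 49 genes, the parental lines differed in other genes of innate sensing and of interferon response. AIM2, a sensor of cytosolic DNA, was at 7.40 and 5.43 CPM in parental Cal27 and at 0 and 0.104 CPM in parental FaDu, and had a log2 difference of 6.81 ± 0.66. CXCL11, a chemokine induced by interferon gamma, was at 7.46 and 7.82 CPM in Cal27 against 0.0971 and 0.104 CPM in FaDu. In parental FaDu both genes lay below 0.128 CPM, the lowest level that 3 counts stand for. The size of the AIM2 difference is therefore uncertain, beyond its standard error. CD74, the invariant chain of class II antigen presentation, was at 198 and 285 CPM in Cal27 against 7.04 and 4.94 CPM in FaDu, a log2 difference of 5.33 ± 0.35 (SE, adjusted p = 1.7e-07 by edgeR). STING1, the adaptor of cytosolic DNA sensing, went the other way, with a log2 difference of -2.10. Of the 15 antigen presentation genes, 10 were called higher in parental Cal27 and 0 lower, where 19.1% of all genes were called higher and 12.5% lower.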
